A study of Mus musculus with 6 samples.

Results

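Genes that mark or drive the first steps towards B and T lymphocytes were followed in haematopoietic stem cells (HSCs) of control mice and of mice deleted for *Maea*, which encodes the RING subunit of an E3 ubiquitin ligase. The 9 genes were *Dntt*, *Satb1*, *Ighm*, *Il7r*, *Rag1*, *Ikzf1*, *Tcf3*, *Notch1* and *Bcl11a*, picked by name, and each had 1 row of the table of 46959 gene symbols. The libraries came from mouse bone marrow HSCs sorted as lineage-negative, Sca-1+, c-Kit+, CD150+ and CD48- cells at 8 weeks of age, 3 from control mice and 3 from MaeaCsf1r-Cre mice. The deletion was driven by the *Csf1r* promoter, which is used above all to target mononuclear phagocytes and also recombined in HSCs, so macrophages of these mice were targeted as well. Mice were on a C57BL/6 background, each library held RNA of 2000 cells pooled from 2 mice, and the labels name the other group only as control, without its alleles. Replicates are numbered in the labels, which do not say whether any mice were shared, so p-values measure the spread between these libraries.

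HSCs sit at the top of blood formation, and a fraction of them carries low levels of lymphoid transcripts long before any lymphoid surface marker appears, a state called lymphoid priming. In textbook order, transcription factors such as Ikaros (*Ikzf1*), the E protein E2A (*Tcf3*), BCL11A and the chromatin organiser SATB1 open lymphoid genes. Notch1 and the interleukin-7 receptor then carry signals from the marrow and thymus. The products that assemble and diversify antigen receptors, *Rag1* and *Dntt*, and the sterile and later rearranged transcripts of the immunoglobulin heavy chain gene *Ighm*, follow as readouts.

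The 9 genes split into separate patterns. *Ighm*, *Dntt* and *Satb1* were lower in all 3 MaeaCsf1r-Cre libraries than in all 3 control libraries, by 16.0-fold, 6.65-fold and 2.81-fold of the mean CPM (reads of a gene scaled to a common library size). *Notch1* was lower in each MaeaCsf1r-Cre library than in the control library of the same number, although the groups overlapped. In bulk RNA fewer cells with a transcript and less of it per cell cannot be told apart. *Ikzf1*, *Tcf3* and *Bcl11a* had group means within 0.05 of each other on the log2 scale, and *Il7r* and *Rag1* were close to the detection limit. No gene of the 9 passed the test across all genes (limma's moderated test on log2(CPM + 1), Benjamini-Hochberg adjusted over 12955 genes, threshold 0.05).

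The promoters of *Dntt*, *Satb1* and *Notch1* are shown for the motifs of factors among the 9 genes. Among the genes with a promoter listed, these were lower in MaeaCsf1r-Cre HSCs at an unadjusted p under 0.05 (limma). The sequences run from 250 bases before to 50 bases after the start in RefSeq on GRCm38.p6, 5′ to 3′ on the strand of the gene, and 8 of the 9 genes had an entry. The searched letters were CANNTG, the E-box bound by E proteins such as E2A, and TGGGAA on either strand, a core that Ikaros and the Notch partner RBPJ share. TGTGGT, the core of RUNX sites, was searched on either strand as well. Capitals mark each match of CANNTG and TGGGAA, which overlap nowhere in these windows. *Dntt* is at chr19:41029025-41029324 on the plus strand, *Satb1* at chr17:51833241-51833540 and *Notch1* at chr2:26503773-26504072, both on the minus strand. For *Satb1* the most upstream of 5 listed starts was used.
Dntt: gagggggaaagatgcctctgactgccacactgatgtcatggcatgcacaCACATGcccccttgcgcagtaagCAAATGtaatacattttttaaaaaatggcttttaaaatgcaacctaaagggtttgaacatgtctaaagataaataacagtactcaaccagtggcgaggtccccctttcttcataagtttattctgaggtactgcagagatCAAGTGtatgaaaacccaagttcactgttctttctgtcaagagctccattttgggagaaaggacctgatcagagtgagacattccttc
Satb1: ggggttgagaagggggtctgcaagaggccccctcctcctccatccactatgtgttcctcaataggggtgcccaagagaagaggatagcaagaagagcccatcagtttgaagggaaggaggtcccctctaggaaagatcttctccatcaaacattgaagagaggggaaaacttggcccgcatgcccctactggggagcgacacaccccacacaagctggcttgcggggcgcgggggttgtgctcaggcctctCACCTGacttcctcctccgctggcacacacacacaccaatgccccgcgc
Notch1: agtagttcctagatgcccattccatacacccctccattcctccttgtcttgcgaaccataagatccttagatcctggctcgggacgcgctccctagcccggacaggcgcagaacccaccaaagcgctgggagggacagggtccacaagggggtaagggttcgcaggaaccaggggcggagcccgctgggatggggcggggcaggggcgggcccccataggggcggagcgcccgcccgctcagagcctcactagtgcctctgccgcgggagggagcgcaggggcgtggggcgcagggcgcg

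The *Dntt* window held 3 E-boxes, which begin at bases -201, -178 and -38 from the start. The *Satb1* window held 1, which begins at base 1, and the *Notch1* window held 0. TGGGAA and TGTGGT were found in 0 of these 3 windows. Among the other members *Rag1* held 4 E-boxes, 1 TGGGAA and 2 TGTGGT, *Il7r* 3 E-boxes and 1 TGTGGT, *Bcl11a* 1 E-box and 1 TGGGAA, *Tcf3* 1 E-box and *Ikzf1* none of them. Of all 32851 promoters of this length 72.3% held CANNTG, 25.6% TGGGAA and 16.8% TGTGGT, and a match of letters is no evidence of binding. The GC content was 42.3% for *Dntt*, 59.0% for *Satb1* and 68.3% for *Notch1*, against a median of 52.7% over all promoters.

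The deposited values are CPM made by the authors from single-end reads aligned to mm10, and the reads behind each library's scaling, read from the steps between low values, numbered 32968000 to 39614000 in control and 44159000 to 60937000 in MaeaCsf1r-Cre libraries. A signal of 3 reads, taken as the floor, was 0.0492 to 0.0910 CPM, which accounts for counting error alone. *Maea*, the deleted gene, was at 108, 116 and 123 CPM in control libraries 1, 2 and 3 and at 76.9, 88.6 and 101 CPM in MaeaCsf1r-Cre replicates 1, 2 and 3. This was a log2 fold change of -0.39 (95% interval -0.70 to -0.07). The value covers the whole gene and not the deleted exons alone. Same-numbered libraries of the groups deviated together, so a second fit of every gene held the replicate number as a block. Over all genes tested 1 had an adjusted p under 0.05, *BC023719*, named because it was the only one and not by a rule. That is 0.00772% of the genes, in the fit without and in the fit with the block.

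The antigen receptor genes come first. *Dntt*, on chromosome 19 from 41029275 to 41059525 (GRCm38, protein-coding), encodes terminal deoxynucleotidyl transferase, which adds bases without a template at the joints of rearranging receptor genes. It was at 24.7, 17.9 and 5.85 CPM in control libraries 1, 2 and 3 and at 1.26, 1.13 and 4.89 CPM in MaeaCsf1r-Cre replicates 1, 2 and 3. The groups did not overlap, but the lowest control and the highest MaeaCsf1r-Cre library, both replicate 3, lay next to each other. The mean was 16.2 ± 9.55 CPM in control and 2.43 ± 2.14 CPM in MaeaCsf1r-Cre HSCs (SD, n = 3 each). The fitted log2 difference was -2.29 ± 0.56 (SE; limma, adjusted p = 0.967, or 0.221 when blocked by replicate). By pair, the log2 difference was -3.50, -3.15 and -0.22 for replicates 1, 2 and 3. The exact permutation test on the single gene gave p = 0.1 (two-sided), the smallest that 20 labellings of 3 against 3 libraries allow.

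*Rag1*, on chromosome 2 from 101638282 to 101649501, encodes a subunit of the recombinase that cuts receptor genes. It was at 0.0607, 0 and 0.117 CPM in control replicates 1, 2 and 3, or 2, 0 and 4 reads, and at 0 in the 3 MaeaCsf1r-Cre libraries. The control mean of 0.0592 CPM was under the floor of 3 reads per library, so no fold is given, and a difference was not detectable at this depth. An overlapping gene, *B230118H07Rik*, shares 80 bases of exon with *Rag1* and was at 12.2 to 24.1 CPM. Of the 15 genes listed for V(D)J recombination and end joining 13 were tested. *Dntt* was the 1 with an unadjusted p under 0.05 (limma), and was lower, as were 3.19% of all genes tested. The median log2 fold change of the list was -0.03, against -0.06 over all genes tested. Its partners in joining had small differences in both directions. *Xrcc4*, a scaffold of the ligase, had a log2 fold change of -0.40 ± 0.25 (SE), *Poll*, a polymerase of the same family as *Dntt*, of -0.33 ± 0.21 (SE), and *Lig4*, the ligase, of 0.43 ± 0.29 (SE).

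*Ighm*, on chromosome 12 from 113418558 to 113422730 (minus strand, immunoglobulin constant gene), encodes the constant part of the IgM heavy chain, and its locus is transcribed in early progenitors before any rearrangement. It was at 16.9, 29.5 and 7.51 CPM in control replicates 1, 2 and 3. In MaeaCsf1r-Cre replicates 1, 2 and 3 it was at 0.279, 0.838 and 2.26 CPM, or 17, 37 and 100 reads. The groups did not overlap, and the nearest libraries were again those of replicate 3. The mean went from 17.9 ± 11 to 1.12 ± 1.02 CPM (SD, n = 3 each). The fitted log2 difference was -3.08 ± 0.50 (SE; limma, adjusted p = 0.489, or 0.141 when blocked by replicate). It was the lowest of all 12955 genes tested, and by p the gene ranked 7. *Ighm* was under 1 CPM in MaeaCsf1r-Cre replicates 1 and 2. The gene passed the filter, at least 1 CPM in at least 3 libraries, through the control libraries, so these ranks are a description only. The pairs differed by -3.80, -4.05 and -1.39 on the log2 scale, and the exact permutation p was 0.1, again the smallest possible.

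The partners of *Ighm* in the receptor were mostly too low to be tested. Of the 12 genes listed for the pre-B and B cell receptor 4 were tested. *Ighm* was the 1 with an unadjusted p under 0.05 (limma), and was lower, as were 3.19% of all genes tested. *Cd79b*, a signalling chain of the receptor, had a mean of 22.9 ± 5.83 CPM in control and 20.1 ± 6.24 CPM in MaeaCsf1r-Cre HSCs (SD, n = 3 each). The kinase genes *Syk* and *Btk* had log2 fold changes of -0.28 ± 0.27 (SE) and 0.03 ± 0.13 (SE). The surrogate light chain gene *Igll1* was listed at 0 in all 6 libraries, and *Vpreb1* was at 0.328 to 0.643 CPM in both groups.

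**Figure D1:**
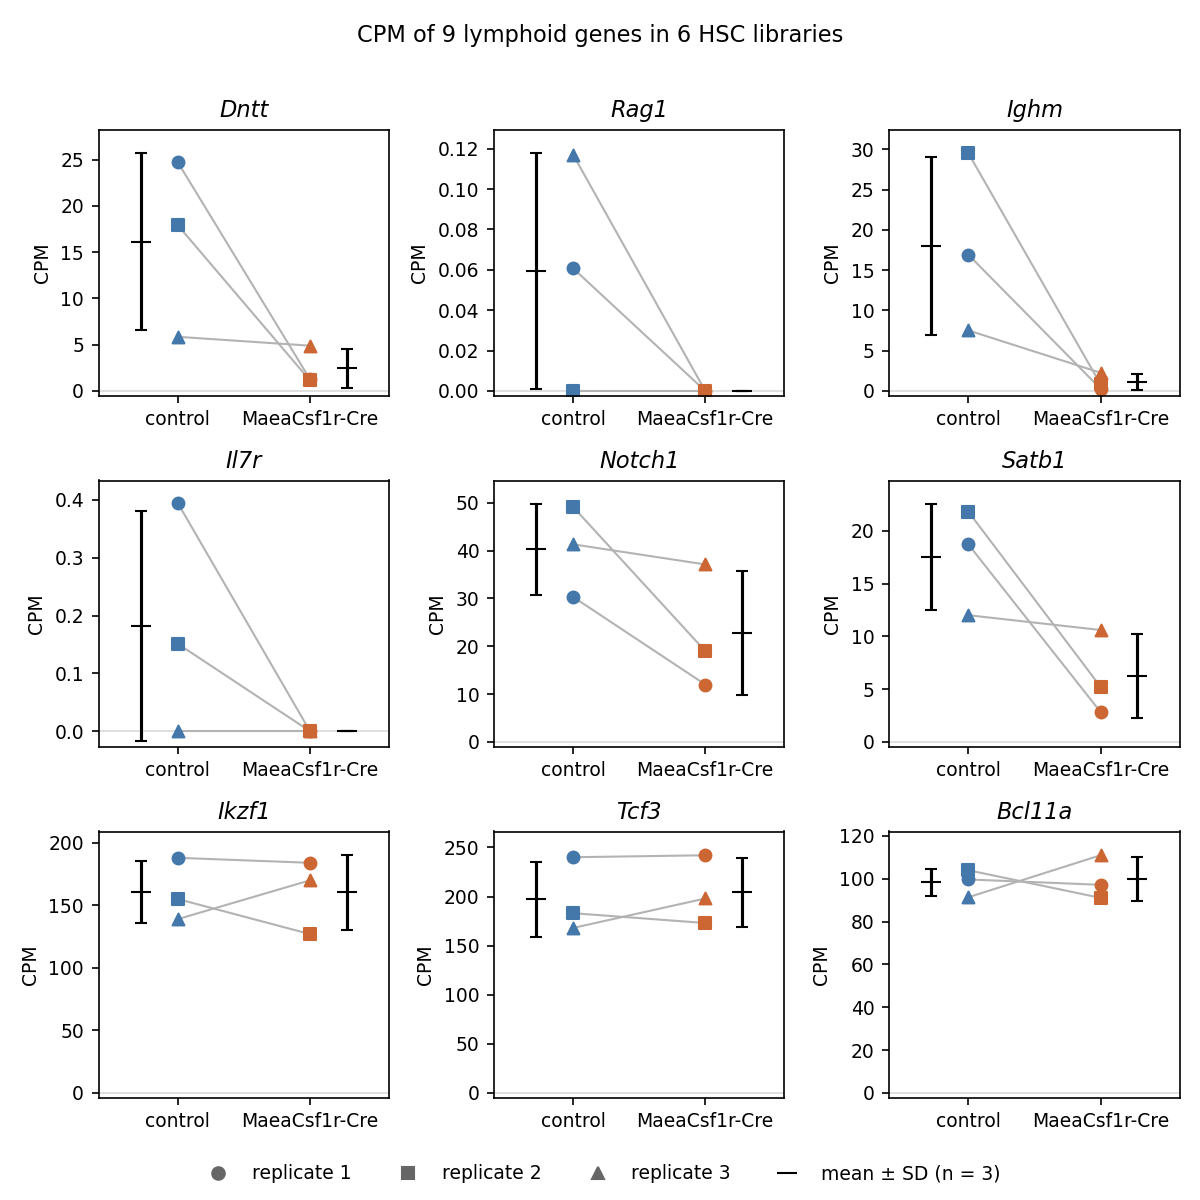
CPM (y axis, linear) of the 9 genes in 3 control and 3 MaeaCsf1r-Cre HSC libraries, with symbols for the replicate number, grey lines between same-numbered libraries and the mean ± SD beside each group. *Dntt*, *Ighm* and *Satb1* do not overlap between the groups, and *Ikzf1*, *Tcf3* and *Bcl11a* overlap. The replicate 3 pair has the flattest line for *Dntt*, *Satb1* and *Notch1*.

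Of the receptors, *Notch1*, on chromosome 2 from 26457903 to 26516663 (minus strand), encodes the receptor whose signal commits progenitors to the T lineage. It was at 30.3, 49.1 and 41.3 CPM in control libraries 1, 2 and 3 and at 12.0, 19.0 and 37.1 CPM in MaeaCsf1r-Cre replicates 1, 2 and 3. MaeaCsf1r-Cre replicate 3 lay above control replicate 1, so the groups overlapped. The mean was 40.2 ± 9.46 CPM in control and 22.7 ± 13.0 CPM in MaeaCsf1r-Cre HSCs (SD, n = 3 each). The log2 fold change was -0.92 ± 0.37 (SE; limma, adjusted p = 0.967, or 0.221 when blocked by replicate). The pairs differed by -1.27, -1.33 and -0.15 on the log2 scale, lower in 3 of 3, and the exact permutation p without pairing was 0.2. Without MaeaCsf1r-Cre replicate 1 the log2 fold change was -0.55, and the unadjusted p of 0.0401 rose above 0.05 without control replicate 2 or 3 or MaeaCsf1r-Cre replicate 1 or 2. It was 0.0713 with no filter and 0.0507 with no mean-variance trend. *Notch1* shares 1068 bases of exon with *0610009E02Rik*, which was at 0.115 to 0.340 CPM.

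Of 29 genes listed for the Notch pathway 25 were tested and 18 were lower in MaeaCsf1r-Cre HSCs, where 60.9% of all genes were. The median log2 fold change of the list was -0.17. *Notch1* was the 1 with an unadjusted p under 0.05 (limma), and was lower, as were 3.19% of all genes tested. With the block 5 genes, each lower, were below 0.05, where 10.8% of all genes were lower. *Maml1*, a coactivator of the Notch complex, had a mean of 14.9 ± 2.32 CPM in control and 10.9 ± 2.10 CPM in MaeaCsf1r-Cre HSCs, and *Hes5*, a target gene, a mean of 1.99 ± 0.105 and 1.33 ± 0.242 CPM (SD, n = 3 each). These were the 2 genes of the list whose groups did not overlap, both lower in MaeaCsf1r-Cre, as were 6.06% of all genes tested. *Aph1a*, a part of the protease that releases the receptor's inner domain, had a log2 fold change of 0.31 ± 0.16 (SE), and *Hes1*, the target shared with the T lineage list, of 0.39 ± 0.25 (SE).

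*Il7r*, on chromosome 15 from 9505788 to 9530176 (minus strand), encodes the chain of the interleukin-7 receptor that lymphoid progenitors need. It was at 0.394, 0.151 and 0 CPM in control replicates 1, 2 and 3, which is 13, 6 and 0 reads, and at 0 in the 3 MaeaCsf1r-Cre libraries. The control mean of 0.182 CPM was at least 2.95-fold higher than the MaeaCsf1r-Cre level, set against a floor of 3 reads per library, and rests on 2 of 3 control libraries. Without control replicate 1, a setting chosen after seeing the data, the control mean was 0.0757 CPM, under the floor of 3 reads, and no fold can be given. The exact permutation p was 0.4, and the gene was too low for the test across genes. Of 11 genes listed for the interleukin-7 receptor pathway 9 were tested, 5 lower and 4 higher, where 60.9% of all genes were lower. An unadjusted p under 0.05 (limma) was reached by 0 of them, against 1 with the block, *Socs1*. *Socs1* was higher, as were 403 of all 12955 genes tested at that p with the block. *Jak1*, the kinase on the receptor, was at 325 ± 11.5 and 288 ± 43.0 CPM, *Socs1*, its inhibitor, at 7.45 ± 1.72 and 10.3 ± 3.30 CPM, and *Crlf2*, the partner chain in the receptor for TSLP, at 23.1 ± 5.86 and 29.0 ± 10.3 CPM in control and MaeaCsf1r-Cre HSCs (SD, n = 3 each).

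Of the nuclear regulators, *Satb1*, on chromosome 17 from 51736187 to 51833290 (minus strand), folds chromatin and promotes lymphoid genes in HSCs. It was at 18.7, 21.8 and 12.0 CPM in control libraries 1, 2 and 3 and at 2.84, 5.23 and 10.6 CPM in MaeaCsf1r-Cre replicates 1, 2 and 3. The groups did not overlap, and the replicate 3 libraries were nearest to each other. The mean went from 17.5 ± 5.0 to 6.22 ± 3.97 CPM (SD, n = 3 each). The fitted log2 difference was -1.46 ± 0.40 (SE; limma, adjusted p = 0.967, or 0.232 when blocked by replicate). By pair it differed by -2.36, -1.87 and -0.17 on the log2 scale. The exact permutation p was 0.1, the smallest possible. *Gm36931*, which shares 156 bases of exon with *Satb1*, was at 0 to 0.582 CPM.

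*Ikzf1*, on chromosome 11 from 11685003 to 11772926, encodes Ikaros, without which B cells do not form. It was at 188, 155 and 139 CPM in control libraries 1, 2 and 3 and at 184, 127 and 170 CPM in MaeaCsf1r-Cre replicates 1, 2 and 3. The groups overlapped, and the log2 fold change was -0.01 with a 95% interval of -0.42 to 0.39. Of 16 genes listed for the Ikaros family and its NuRD partners 15 were tested, with a median log2 fold change of -0.04 and 0 at an unadjusted p under 0.05. The 3 with the smallest p were *Chd4*, the remodelling enzyme of NuRD (log2 fold change -0.14 ± 0.11, SE), *Gatad2a* (0.12 ± 0.11, SE) and *Mta1* (0.11 ± 0.13, SE), both subunits of the complex.

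*Tcf3*, on chromosome 10 from 80409514 to 80433647 (minus strand), encodes the E proteins E12 and E47. It was at 240, 183 and 168 CPM in control libraries 1, 2 and 3 and at 242, 173 and 198 CPM in MaeaCsf1r-Cre replicates 1, 2 and 3. The log2 fold change was 0.05 (95% interval -0.36 to 0.47), and the highest library in both groups was replicate 1. Of the 11 E protein and Id genes 10 were tested, 7 lower and 3 higher, where 60.9% of all genes were lower. An unadjusted p under 0.05 (limma) was reached by 0 of them, against 1 with the block, where 10.8% of all genes were lower. *Tcf4*, another E protein, had a log2 fold change of -0.30 ± 0.24 (SE), *Lmo2*, which bridges E proteins to GATA factors, of -0.27 ± 0.21 (SE), and *Id1*, an inhibitor of E proteins, of 0.33 ± 0.33 (SE).

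*Bcl11a*, on chromosome 11 from 24078056 to 24174123, encodes a zinc finger repressor needed for B cell development. It was at 99.7, 104 and 91.4 CPM in control libraries 1, 2 and 3 and at 97.2, 91.1 and 111 CPM in MaeaCsf1r-Cre replicates 1, 2 and 3. The log2 fold change was 0.02 with the narrowest 95% interval of the 7 genes tested, -0.27 to 0.31. It was the 1 gene of 12 tested B lineage factors that was higher in MaeaCsf1r-Cre HSCs by the group mean. The other 11 were lower, where 60.9% of all genes tested were, and the median over the 12 was -0.26. An unadjusted p under 0.05 (limma) was reached by 0 of the 12, against 2 with the block, where 10.8% of all genes were lower. The 11 lower genes included *Zfp521* (log2 fold change -0.55 ± 0.34, SE), *Mef2c* (-0.41 ± 0.27, SE) and *Foxo1* (-0.36 ± 0.30, SE), the last a direct driver of early B cell genes. *Pax5* and *Pou2af1*, which mark committed B cells, were listed at 0 in all 6 libraries and *Ebf1* was at 0.0757 to 0.177 CPM.

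Per kilobase of exon, a rough scale for comparing genes with each other, the control levels were highest for *Tcf3*, at 48.8 CPM per kilobase, followed by *Ikzf1* at 27.8. The length took in all annotated exons of a gene, 19.03 kilobases for *Satb1* and 1.89 for *Ighm*. It can exceed that of the transcripts present, so the order depends in part on the annotation. *Ighm* at 9.51, *Bcl11a* at 7.46 and *Dntt* at 7.05 followed, with *Notch1* at 2.83 and *Satb1* at 0.919. The SD over the control libraries was 4.17 for *Dntt*, so that the order of *Ighm*, *Bcl11a* and *Dntt* lay within the spread. In MaeaCsf1r-Cre HSCs *Tcf3* at 50.5, *Ikzf1* at 27.7 and *Bcl11a* at 7.57 were the first 3. *Notch1* at 1.59, *Dntt* at 1.06, *Ighm* at 0.596 and *Satb1* at 0.327 came after them. There *Notch1* and *Dntt* (SDs 0.911 and 0.932) did not differ beyond their spread, nor did *Dntt* and *Ighm* or *Ighm* and *Satb1* (SDs 0.540 and 0.209). *Rag1* and *Il7r* came last in control, and were at 0 in MaeaCsf1r-Cre libraries.

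**Figure D2:**
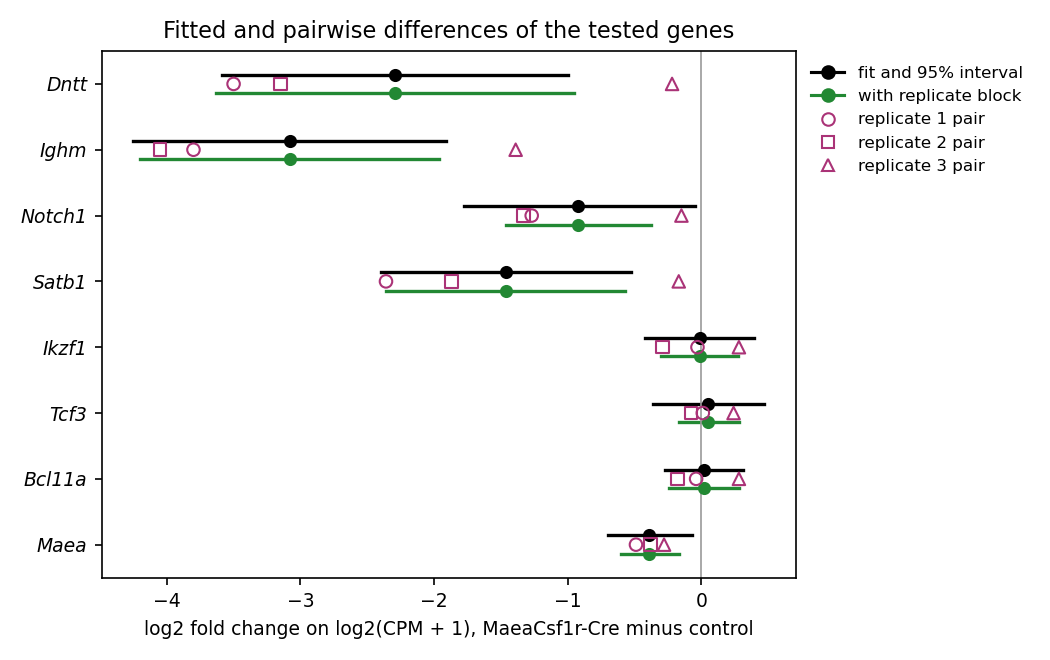
Log2 fold change on log2(CPM + 1), MaeaCsf1r-Cre minus control (x axis), of the 7 genes tested and *Maea*, with the fitted value and its 95% interval without (black) and with (green) the replicate block, and the difference of each same-numbered pair (open symbols). The replicate 3 pair lies nearest to 0 for *Dntt*, *Ighm*, *Notch1*, *Satb1* and *Maea*, and the intervals of *Ikzf1*, *Tcf3* and *Bcl11a* span 0.

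The 9 genes were named with earlier results of these data known, so the counts that follow are a description. Of the 9 genes, 7 passed the filter of at least 1 CPM in at least 3 libraries, and *Il7r* and *Rag1* did not. Of the 7 tested 0 had an adjusted p under 0.05 in either fit. *Dntt*, *Satb1*, *Ighm* and *Notch1*, 4 of 7, were lower in MaeaCsf1r-Cre HSCs at an unadjusted p under 0.05, where 3.19% of all genes tested were, and 0 were higher, against 0.803% of all genes. With the block these 4 were again below 0.05, where 10.8% of all genes were lower. The groups did not overlap, with MaeaCsf1r-Cre lower, for 3 of the 7 genes and for 6.06% of all genes tested. The median log2 fold change was -0.92 for the 7 genes and -0.06 for all genes tested, of which 60.9% were lower. Over all genes 413 were lower and 104 higher at an unadjusted p under 0.05. This split moved to 305 and 199 when libraries were rescaled by median ratios, and to 301 and 219 after quantile normalization, and the same 4 genes were below 0.05 under both scalings.

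Over the 6 libraries, on log2(CPM + 1), Pearson's r was 0.94 for *Dntt* and *Satb1*, 0.95 for *Dntt* and *Ighm*, 0.95 for *Satb1* and *Ighm*, and 0.91 for *Satb1* and *Notch1*. *Ikzf1* and *Tcf3* had an r of 0.92 with each other, and *Tcf3* and *Notch1* of -0.49. Within the groups, after taking out the group means, r was 0.89 for *Satb1* and *Ighm*, 0.83 for *Dntt* and *Ighm* and 0.81 for *Dntt* and *Satb1*. For *Notch1* it was 0.83 with *Satb1*, 0.63 with *Ighm* and 0.40 with *Dntt*. *Bcl11a*, whose group means were close, had an r within groups of 0.88 with *Dntt*, 0.80 with *Ighm* and 0.78 with *Satb1*. These are descriptions over 6 libraries that share the group difference and the pairing. The tested genes most like each of them by Pearson's r over the 6 libraries were *Tmem177* (0.986) and *Shprh* (0.981) for *Dntt*, *Osbpl5* (0.998) and *Dynlt1b* (0.997) for *Satb1*, and *Grsf1* (0.991) and *Ncf1* (0.990) for *Ighm*. For *Notch1* they were *Stk10* (0.993) and *Tox* (0.993). For the others they were *Prpsap1* (0.998) and *Nfe2l2* (0.995) for *Ikzf1*, *Hist1h3i* (0.998) and *Knop1* (0.997) for *Tcf3*, and *Mark2* (0.985) and *Hspb6* (0.98) for *Bcl11a*. Of these, *Ncf1*, an oxidase subunit, averaged 11.8 CPM in control and 3.83 CPM in MaeaCsf1r-Cre HSCs, while *Grsf1* was at 93.6 and 87.4 CPM, so that a like pattern came with very unlike sizes.

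The surrounding lymphoid programme was read from lists. Of 8 T lineage factors 5 were tested, and 2, *Satb1* and *Tox*, were lower at an unadjusted p under 0.05 (limma), against 3.19% of all genes. *Tox*, a chromatin factor of T cell development, was at 5.64, 14.3 and 10.4 CPM in control libraries 1, 2 and 3 and at 1.07, 2.90 and 7.15 CPM in MaeaCsf1r-Cre replicates 1, 2 and 3. Its log2 fold change was -1.38 ± 0.51 (SE; limma, adjusted p = 0.967, or 0.204 when blocked by replicate). *Gata3*, a driver of T cell fate, had a log2 fold change of -0.22 ± 0.34 (SE). *Tcf7* was at 0.113 to 0.455 CPM, and *Bcl11b*, the gene of T cell commitment, was listed at 0 in all 6 libraries.

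Of 18 genes listed for lymphoid-primed progenitors 11 were tested and 9 were lower, where 60.9% of all genes were, with a median log2 fold change of -0.27. At an unadjusted p under 0.05 (limma) 3 were lower and 1 was higher, against 3.19% and 0.803% of all genes. *Flt3*, the receptor that marks the lymphoid-primed branch, was at 67.2, 120 and 34.4 CPM in control libraries 1, 2 and 3 and at 15.7, 33.7 and 37.0 CPM in MaeaCsf1r-Cre replicates 1, 2 and 3. In replicate 3, the pair with the smallest difference for *Dntt* and *Satb1*, *Flt3* was higher in the MaeaCsf1r-Cre library. Its log2 fold change was -1.24 ± 0.47 (SE; limma, adjusted p = 0.967, or 0.265 when blocked by replicate). *Mn1*, a transcriptional cofactor, went from 8.52 ± 3.85 to 3.33 ± 1.89 CPM without overlap (SD, n = 3 each), and *Ltb*, a lymphoid cytokine, had a log2 fold change of -1.03 ± 0.42 (SE). *Csf2rb2*, a chain of the interleukin-3 receptor, went the other way, from 7.81 ± 1.36 to 18.9 ± 3.48 CPM without overlap (SD, n = 3 each; adjusted p = 0.511, and 0.0868 with the block).

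**Figure D3:**
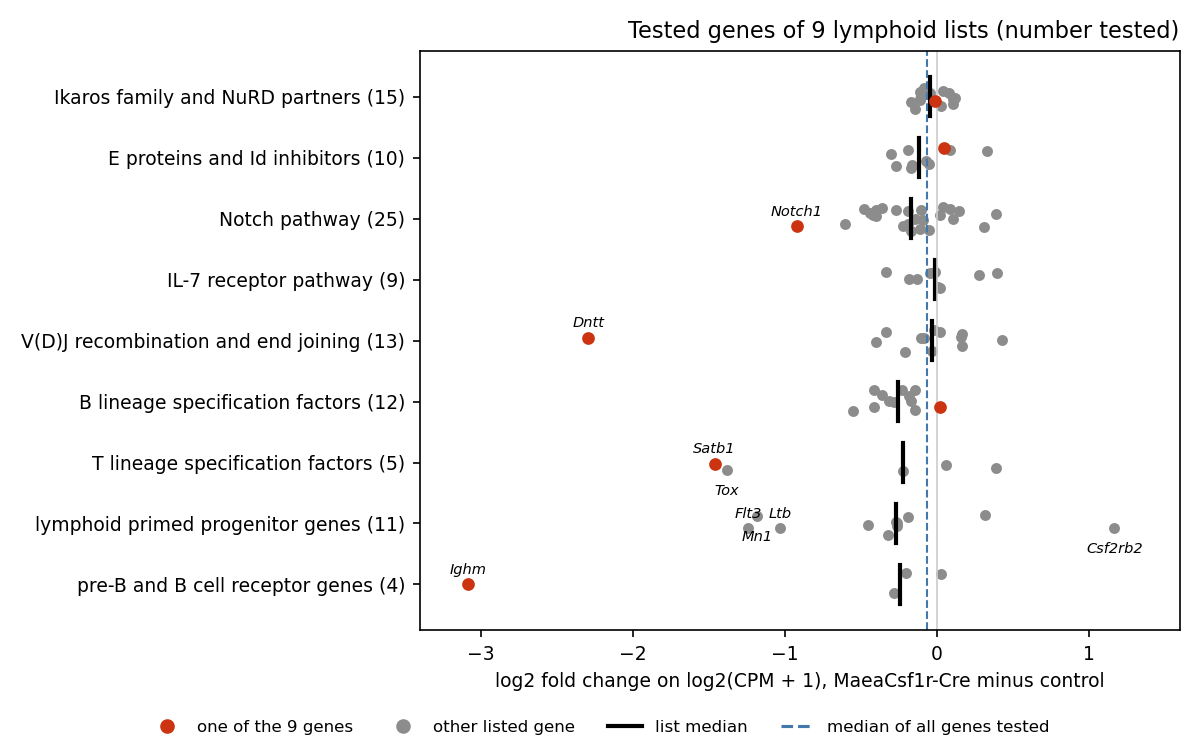
Log2 fold change on log2(CPM + 1), MaeaCsf1r-Cre minus control (x axis), of each tested gene of the 9 lymphoid lists with more than 1 gene tested (rows, with the number tested), with the 9 followed genes in red, list medians as black bars and the median of all genes tested, -0.06, as a dashed line. *Ighm* and *Dntt* lie left of all other genes of their lists, *Satb1* lies beside *Tox*, and the Ikaros, interleukin-7 receptor and end joining genes gather around 0.

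Lists of cell type markers were read beside these results. All 12 HSC markers were tested, and their summed level was 1180 to 1870 CPM in control and 836 to 1550 CPM in MaeaCsf1r-Cre libraries. The 7 markers of lymphoid-primed multipotent progenitors, which include *Dntt* and *Il7r*, summed to 417 to 820 and 314 to 470 CPM. The 12 B cell markers summed to 17.9 to 35.7 CPM in control and 13.8 to 26 CPM in MaeaCsf1r-Cre libraries, of which *Cd79b* made up 12.9 CPM or more in each library, and the defining markers *Ms4a1* and *Pax5* were at 0 throughout. *Cd79a* was at 0 to 0.0453 CPM. The 10 T cell markers summed to 11.7 to 16.7 and 7.34 to 10.9 CPM, with *Cd3g* and *Cd8a* at 0 throughout. *Lck* made up most of this sum, at 9.41 to 13.2 and 6.60 to 9.69 CPM, and its groups overlapped, as did those of *Cd4*. The 8 plasma cell markers summed to 9.22 to 18.3 and 3.31 to 8.46 CPM, with *Sdc1* at 2.90 to 10.1 CPM. By the mean 6 of the 8 were lower and 1 was higher. *Mzb1* was at 0.0252 to 0.0607 CPM in control libraries, under the floor of 3 reads, and at 0 in the 3 MaeaCsf1r-Cre libraries. *Jchain* averaged 1.11 CPM in control and 0.107 CPM in MaeaCsf1r-Cre HSCs and overlapped between the groups. *Derl3* averaged 0.746 and 0.859 CPM, and *Prdm1* 0.619 and 0.603 CPM. For the plasma cell and T cell lists the sums did not overlap between the groups, nor did *Sdc1*, which made up most of the former in MaeaCsf1r-Cre libraries. The plasmacytoid dendritic cell markers summed to 39.3 to 50.5 and 45.0 to 48.3 CPM, *Bst2* making up 38.6 CPM or more in each library, with *Siglech* at 0 throughout, and the natural killer cell markers to 41.4 to 63.3 and 41.8 to 87.5 CPM, *Nkg7* making up 38.7 CPM or more, with *Ncr1* at 0 throughout.

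Most macrophage markers had lower group means. Of 12 listed 10 were tested and 9 were lower by the mean, where 60.9% of all genes tested were. At an unadjusted p under 0.05 (limma) 4 were lower, against 3.19% of all genes. The groups did not overlap for *C1qa*, *C1qb*, *C1qc* and *Hmox1*, against 6.06% of all genes with MaeaCsf1r-Cre lower. *C1qa*, *C1qb* and *C1qc* were under 1 CPM in every MaeaCsf1r-Cre library. They passed the filter through the control libraries alone, so their lack of overlap is a description only. The summed level was 70.6 to 165 CPM in control and 39.7 to 147 CPM in MaeaCsf1r-Cre libraries. The sum of 147 CPM was in replicate 3, the MaeaCsf1r-Cre library with the highest *Dntt*, *Satb1*, *Ighm* and *Notch1*. The neutrophil list summed to 76.9 to 302 and 76.0 to 164 CPM, the erythroid list to 2630 to 7140 and 3060 to 7050 CPM and the megakaryocyte list to 284 to 1320 and 341 to 708 CPM. The part of these other transcripts in the lower values of *Dntt*, *Satb1*, *Ighm* and *Notch1* was not tested.

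The other immunoglobulin rows, examined after their values had been seen, did not follow *Ighm* library by library. By group, the heavy chain variable sum, *Igkc* and *Igha* were higher in every control than in every MaeaCsf1r-Cre library, as *Ighm* was. *Igha* was under the floor of 3 reads in control replicates 1 and 2. *Ighd*, the IgD constant gene, and the kappa variable and joining sum overlapped between the groups. Whether these rows and *Ighm* share a source was not tested. The kappa constant gene *Igkc* was at 0.0910, 0.606 and 5.61 CPM in control libraries 1, 2 and 3 and at most 0.0677 CPM in MaeaCsf1r-Cre libraries. *Igha*, the IgA constant gene, was at 0.0607, 0.0252 and 4.26 CPM in the control libraries and at 0 in MaeaCsf1r-Cre libraries. Control replicate 3 was thus the highest for *Igkc* and *Igha* and the lowest control for *Ighm*, and control replicate 2, with the highest *Ighm*, had an *Igkc* of 0.606 CPM. Summed over 183 heavy chain variable rows, the level reached 2.29, 1.06 and 2.22 CPM in control libraries 1, 2 and 3 and 0.0985, 0.204 and 0.135 CPM in MaeaCsf1r-Cre replicates 1, 2 and 3, so that *Ighm* exceeded it in every library. Without control replicate 3 the log2 fold change of *Ighm* was -3.57.

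**Figure D4:**
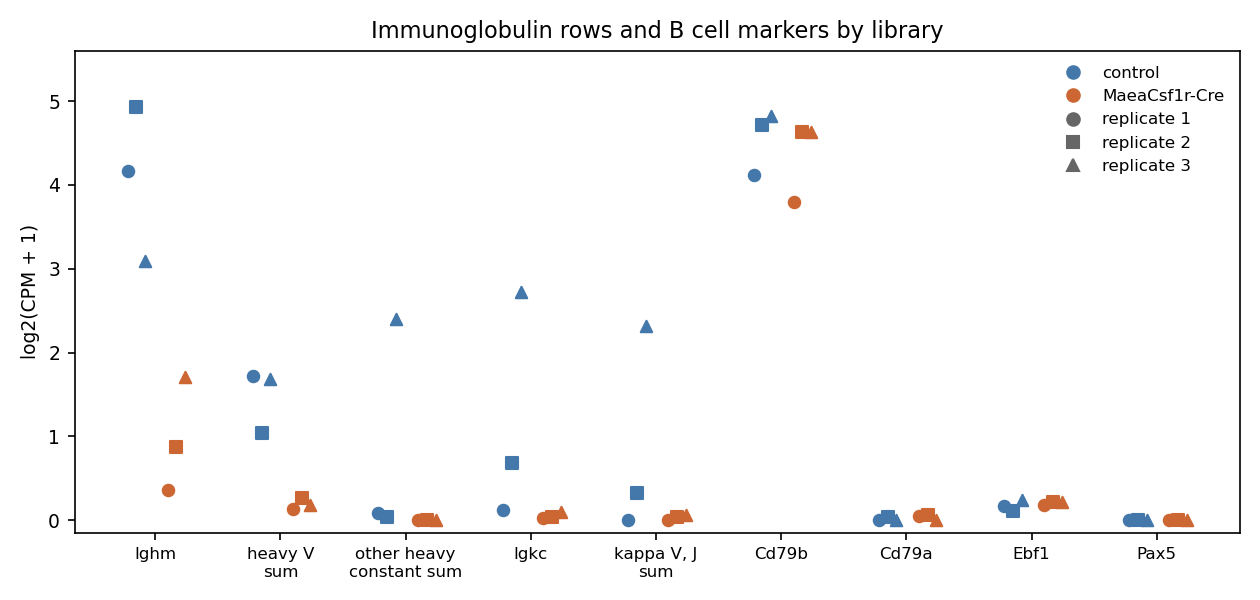
Level on log2(CPM + 1) (y axis) of *Ighm*, summed immunoglobulin rows and B cell markers in each control (blue) and MaeaCsf1r-Cre (orange) library, with symbols for the replicate number. *Ighm* is highest in control replicate 2, the kappa and the other heavy constant rows are highest in control replicate 3, and *Cd79a*, *Ebf1* and *Pax5* are near or at 0 in all 6 libraries.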

How the data were processed

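RNA of 3 control and 3 MaeaCsf1r-Cre HSC libraries was measured. Per the labels and the methods of the study, cDNA was made with SMART-Seq v4 and Nextera XT and sequenced as 150 base single-end reads. The authors trimmed reads with Trim Galore, aligned them to mm10 with STAR 2.5.3a, counted them over Ensembl Transcripts release 83 and normalised in Partek Flow. The deposited unit is CPM, and an offset of 0.0001 that the authors' table carries was subtracted here. SMART-Seq does not mark strand, so reads of overlapping antisense genes cannot be told apart. Library depth was read from the spacing of low values. Because 76.1 to 78.2% of the low values of a library lay within 0.05 of a whole read, whole reads could not be had for nearly all genes, and the test was made on CPM. Rows matched GENCODE symbols of GRCm38 in 44119 of 46959 cases, and 27 symbols had been turned into dates.

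Genes with at least 1 CPM in at least 3 libraries entered the test on log2(CPM + 1) in limma 3.58.1 in R 4.3.3 (linear model, moderated test, mean-variance trend, two-sided, Benjamini-Hochberg adjustment over 12955 genes). Such a fold change understates that of low genes. The same fit with the replicate number as a block was added, since Pearson's r of the deviations of same-numbered libraries from their group means was 0.627, 0.523 and 0.397 across genes, against -0.459 to -0.054 for other pairs. Deviations cancel within a group, so positive values for same-numbered pairs force negative ones elsewhere. The block was chosen on the same data that it was used to test. The numbers are those of the labels, which name no shared litter or day. On simulated data the fit was checked with known changes. Figures and tables used Python 3.11.15. The 9 genes and all lists were chosen with earlier results of these data known. Named beside the 9 genes were *Maea*, up to 3 other tested genes of each of 10 pathway lists with the smallest unadjusted p, and for each tested gene the 2 genes with the highest r, while 11 marker lists were read by count and sum. Alternatives were no filter, a filter at 10 CPM, a pseudocount of 0.1, median ratio scaling, quantile normalization, the block, no trend and each library left out in turn. RNA of lymphoid-primed progenitors was not analysed here, and the values of 2 listed genes are not reported here.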

Additional observations from a re-analysis of the deposited data

How the results depend on the processing

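Over 13 alternatives 445 log2 fold changes of 35 named genes were computed, of which 436 kept their direction, 9 reversed and 0 passed the threshold. *Ighm* ranged from -4.05 to -2.65, *Dntt* from -2.85 to -1.90, *Satb1* from -1.88 to -1.08 and *Notch1* from -1.33 to -0.55, each lower under every alternative in which it was tested. *Notch1* had an unadjusted p from 0.00172 to 0.116. The replicate block left 0 of the 9 genes and 1 gene overall called, as did the fit without it, while genes at an unadjusted p under 0.05 went from 517 to 1805. They ranged from 241 to 964 with 1 library left out and numbered 1138 with no filter. With a filter of 10 CPM 0 genes were called (302 at an unadjusted p under 0.05), 1 of 5 members tested did not overlap and their median was -0.01, since *Dntt* and *Ighm* were no longer tested. Leaving out 1 library gave 0 to 1 genes called. Members without overlap numbered 3 to 4, a count that leaving out a library cannot lower, and the members' median was -1.33 to -0.55. With no filter, where *Il7r* and *Rag1* entered, that median was -0.23. *Ikzf1* reversed to 0.06 under median ratio scaling and ranged from -0.12 to 0.15 with 1 library left out, where *Tcf3* ranged from -0.07 to 0.20, *Bcl11a* from -0.06 to 0.08, *Gata3* from -0.52 to 0.08 and *Cd79b* from -0.42 to 0.08. For *Il7r* and *Rag1* depth is the limit, with 19 and 6 reads over the control libraries.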
